A study of Mus musculus with 24 samples.

Results

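The serpin A genes studied here are 10 genes of mouse chromosome 12: Serpina1a, Serpina1b, Serpina1c, Serpina1d and Serpina1e, Serpina3k, Serpina3m and Serpina3n, and Serpina6 and Serpina10. In GRCm38 (GENCODE M21) they lie between 103614786, where Serpina10 begins, and 104414329, the end of Serpina3n, with the Serpina1 genes, Serpina6 and Serpina10 on the minus strand and the Serpina3 genes on the plus strand. They were taken by symbol from 56205 gene rows, and all 10 were among the 14109 genes with enough counts to be tested. The series holds poly(A) RNA-Seq of the whole livers of 24 mice of the C57BL/6J strain. For 20 weeks, 12 animals received a methionine-choline deficient (MCD) diet and 12 received a control diet. Diets short of methionine and choline are given to mice to produce fatty, inflamed and scarred liver, and the study's methods list this one as a high-fat formulation. Both sexes were used on each diet in equal numbers, but the labels give neither sex nor batch nor litter for a single library, and the age of these animals at the start is not given in the sources used here.

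Serpins of clade A are secreted proteins, and many of them trap proteases. The target protease cuts an exposed reactive centre loop, the serpin refolds, and the protease is held in an inactive complex. The sequence around the cut decides which protease is bound. Hepatocytes make most of the circulating clade A serpins. The Serpina1 genes encode alpha-1-antitrypsin, whose best known target in humans is neutrophil elastase, and the mouse carries several near-identical copies where humans have a single gene. The Serpina3 genes are relatives of human alpha-1-antichymotrypsin, Serpina6 encodes corticosteroid-binding globulin, which carries glucocorticoids and does not inhibit proteases, and Serpina10 encodes the protein Z-dependent inhibitor of coagulation factor Xa.

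The 5 Serpina1 copies differ where the protease cuts, and so they are shown over that stretch. The lines give 60 bases of the coding strand after the hinge of the reactive centre loop, 5′ to 3′, from GENCODE M21 transcripts. Capitals mark the 18 positions at which the copies are not all the same.
Serpina1a: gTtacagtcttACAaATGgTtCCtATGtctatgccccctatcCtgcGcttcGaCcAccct
Serpina1b: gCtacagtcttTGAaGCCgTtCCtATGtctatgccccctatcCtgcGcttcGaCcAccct
Serpina1c: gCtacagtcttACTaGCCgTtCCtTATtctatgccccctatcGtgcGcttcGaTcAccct
Serpina1d: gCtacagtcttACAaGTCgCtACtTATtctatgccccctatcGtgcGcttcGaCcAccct
Serpina1e: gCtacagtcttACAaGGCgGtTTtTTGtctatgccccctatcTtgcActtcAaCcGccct

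Between pairs of copies, 5 to 12 of the 60 bases differed, with the fewest between Serpina1c and Serpina1d and the most for Serpina1e against Serpina1a or Serpina1c. Of all stretches of 75 bases in the longest transcript, 57.5% in Serpina1a, 25.1% in Serpina1b, 66.1% in Serpina1c, 37.1% in Serpina1d and 20.3% in Serpina1e also occurred, letter for letter, in another gene. This length was a choice made here and not the read length of these libraries, and shorter reads would share more. A read within such a stretch can be placed on a single copy only through its mate, if it has one. How the counting treated such reads is not known for any Serpina1 value below, and the sum over the 5 copies is given beside them. For Serpina3k and Serpina3m the shared part was 7.36% and 9.65%, and their annotated exons overlap on the same strand. The annotated span of Serpina1b (103728156 to 103830373) encloses Serpina1d with no exon overlap. It was 1.46% for Serpina3n, 0.263% for Serpina10 and 0 for Serpina6. An exon of Serpina1c overlaps B430119L08Rik on the opposite strand, and whether strand was used in counting is not given in the sources used here.

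The Serpina1 promoters were nearly identical too. Those shown are of the copy whose share of Serpina1 counts rose with the diet (Serpina1a), the copy that fell most (Serpina1d) and the copy that varied most between animals (Serpina1e). They are the 150 bases before the RefSeq transcription start in GRCm38.p6, all on the minus strand, at chr12:103863620-103863769, chr12:103773634-103773783 and chr12:103956898-103957047, written 5′ to 3′. Capitals mark GTTAAT, a run of letters near the start that all 5 Serpina1 promoters hold.
Serpina1a: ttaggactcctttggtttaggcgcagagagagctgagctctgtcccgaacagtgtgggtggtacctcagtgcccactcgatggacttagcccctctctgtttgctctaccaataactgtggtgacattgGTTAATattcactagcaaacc
Serpina1d: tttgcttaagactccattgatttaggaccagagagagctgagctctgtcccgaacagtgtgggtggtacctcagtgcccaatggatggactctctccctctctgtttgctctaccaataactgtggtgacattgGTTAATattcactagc
Serpina1e: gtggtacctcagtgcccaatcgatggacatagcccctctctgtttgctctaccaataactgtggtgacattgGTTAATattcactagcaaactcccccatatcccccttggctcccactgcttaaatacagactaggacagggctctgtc

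The letters GTTAAT (searched on both strands) stood 21 bases before the start in Serpina1a, 26 in Serpina1b, 27 in Serpina1c, 16 in Serpina1d and 78 in Serpina1e, the same 150-base window holding them in 3.708% of 32851 RefSeq promoters. In local alignments of 300 bases around the starts, pairs of Serpina1 promoters were 91.4% to 97.6% identical over the aligned part, and Serpina1e was 96.3% identical to Serpina1d. RefSeq gave a promoter for 6 of the 10 genes. In the sixth, that of Serpina3n, GTTAAT was not found. The letters TTCNNNGAA of the STAT site were found in none of the 6, against 4.091% of all promoters.

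All 10 genes were abundant or well measured. They took 1.59% to 3.51% of all counts in control libraries (median 2.26%) and 1.36% to 2.78% in MCD libraries (median 1.97%), with total counts from 16388650 to 24915175 per library. The lowest count of any member in any library was 307, for Serpina1e. Levels are given as CPM (counts scaled to library size) on the scale of trimmed mean of M-values (TMM) factors, which correct library size for differences in composition. Comparing genes per kilobase of longest transcript, control levels ran in the order Serpina1c (4575 ± 2685 CPM per kb), Serpina1b (3896 ± 1003), Serpina1a (2743 ± 976), Serpina3k (2723 ± 1490), Serpina1d (2613 ± 842), Serpina1e (495 ± 617), Serpina3n (307 ± 103), Serpina6 (229 ± 88.3), Serpina3m (207 ± 49.96) and Serpina10 (53.0 ± 15.2; SD, n = 12 each). In this order the steps from Serpina1b to Serpina1a, from Serpina1d to Serpina1e and from Serpina3m to Serpina10 were wider than both neighbours' SD, and the other neighbours did not differ beyond their spread. On the MCD diet Serpina1b (2337 ± 271 CPM per kb), Serpina1c (2319 ± 617) and Serpina1a (2166 ± 356) stood together at the top, and Serpina1d had moved down to 980 ± 112 (SD, n = 12 each).

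**Figure D1:**
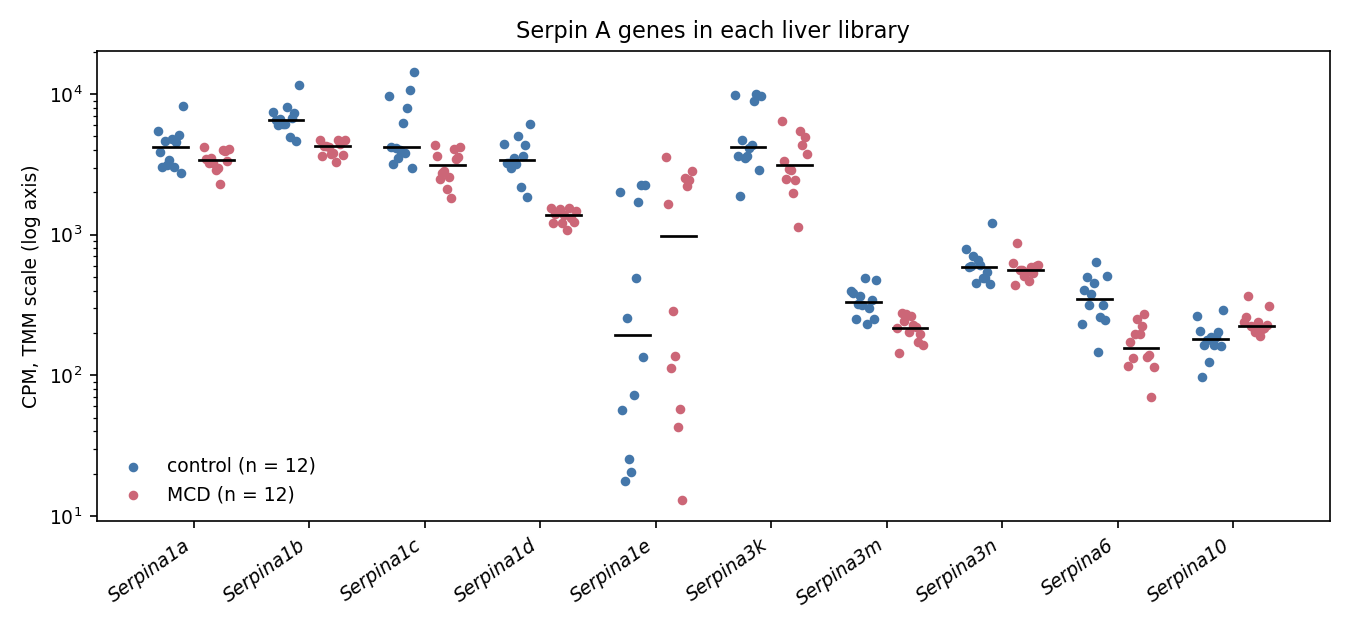
Level of each serpin A gene in each liver library, as CPM on the TMM scale on a log axis. Each point is a library (12 control, blue; 12 MCD, red) and each black bar is the group median. The MCD points of Serpina1d lie below every control point, and Serpina1e spreads over more than 100-fold in both groups.

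The diet comparison asked which of these genes differed between MCD and control liver. With edgeR's quasi-likelihood test over all tested genes, a limit of 0.01 on the false discovery rate (FDR, Benjamini-Hochberg) and an absolute log2 fold change above 0.5, 5 of the 10 were lower in MCD liver (Serpina1b, Serpina1c, Serpina1d, Serpina3m and Serpina6) and 0 were higher. Among all tested genes 19.1% were called lower and 19.2% higher by the same rule. At an unadjusted p under 0.05 in edgeR 1 member (Serpina10) was higher and 7 were lower, beside 27.7% and 39.0% of all tested genes, and DESeq2 and limma-voom each called 0 higher and 5 lower by the first rule. The median log2 fold change was -0.67 over the 10 members and -0.10 over all tested genes. In whole liver, fewer hepatocytes and less of a transcript per hepatocyte cannot be told apart. The scale matters for these calls. TMM factors ran from 0.642 to 0.973 in control and from 1.07 to 1.26 in MCD libraries, and with libraries scaled by total counts alone the median of all genes moved up by 0.37 (log2). On that scale 2 members were called lower (Serpina1d and Serpina6, background 6.01%), and Serpina10 was called higher (background 32.2%).

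**Figure D2:**
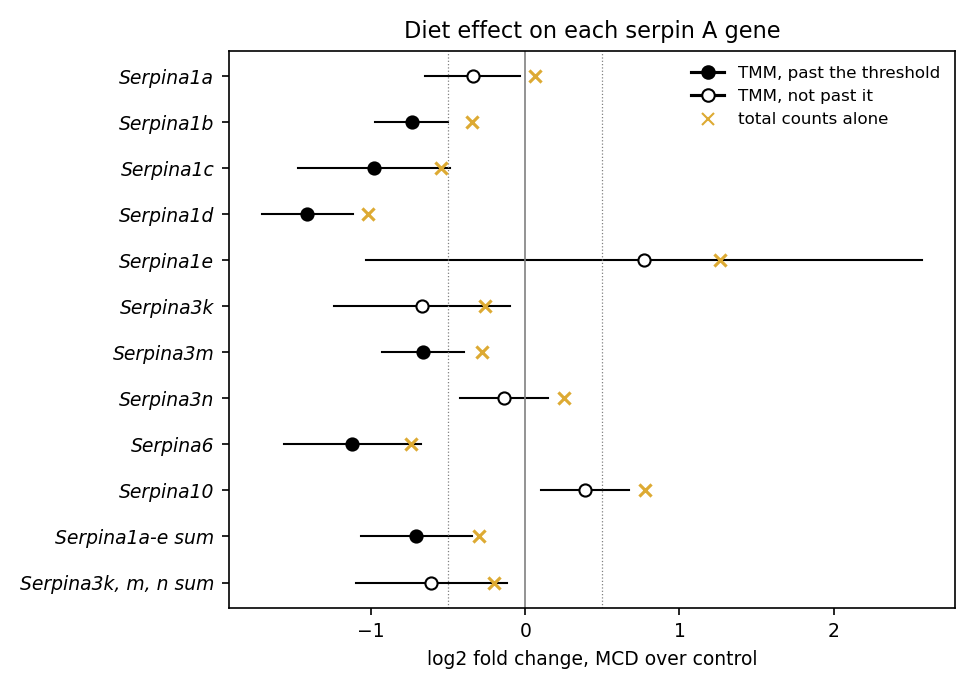
Log2 fold change of MCD over control for each serpin A gene and for the summed Serpina1 and Serpina3 counts. Circles are the fit on the TMM scale with 95% confidence intervals (filled where past the threshold, open where not), crosses are the fit on total counts alone, and dotted lines mark the limits of -0.5 and 0.5. Every cross lies to the right of its circle, and Serpina1d and Serpina6 stay below the lower limit on both scales.

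Among the Serpina1 genes, the copies of alpha-1-antitrypsin, Serpina1d fell most. Serpina1d (ENSMUSG00000071177, chromosome 12, 103763594 to 103773592 in GRCm38, minus strand) ranged from 1857 CPM through a median of 3386 to 6087 in control libraries and from 1080 through 1392 to 1556 in MCD libraries. Thus each MCD library was below the lowest control library, a separation that 4.88% of all tested genes showed in this direction (9.50% in the other). The mean went from 3642 ± 1173 to 1367 ± 156 CPM (SD, n = 12 each), or -1.41 on the log2 scale (SE 0.14, edgeR FDR 4.12e-09), and the change was -1.02 with total-count scaling (FDR 3.9e-09).

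Serpina1b and Serpina1c fell by less. Serpina1b ranged from 4674 CPM (median 6580) to 11539 in control and from 3278 (median 4240) to 4707 in MCD libraries, so that 9 of 12 MCD libraries were below every control library. The fitted log2 change was -0.74 (SE 0.11, edgeR FDR 3.91e-06). Serpina1c ranged from 2993 CPM (median 4176) to 14334 in control and from 1820 (median 3149) to 4312 in MCD libraries, and the groups overlapped, with 6 MCD libraries below every control library. Here edgeR gave -0.98 (log2, SE 0.24, FDR 0.000951). Neither passed on total counts alone, where the log2 fold changes were -0.35 for Serpina1b, short of the fold limit, and -0.54 for Serpina1c (FDR 0.0162).

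Serpina1a and Serpina1e did not pass the test. Serpina1a ranged from 2738 CPM (median 4223) to 8270 in control and from 2304 (median 3402) to 4234 in MCD libraries, and edgeR gave a log2 change of -0.34 (SE 0.15, 95% interval -0.65 to -0.03, FDR 0.0502). Scaled by total counts the value was 0.06, on the other side of 0, and without control replicate 12 it was -0.18 (FDR 0.182). Serpina1e was spread far more widely than any other member, from 17.7 CPM (median 195) to 2274 in control and from 13.1 (median 976) to 3594 in MCD libraries. Its log2 fold change was 0.77 with an SE of 0.88 (edgeR FDR 0.456). The 95% interval ran from -1.03 to 2.57, so that both a fall and a rise lay within it. With the score described below as a covariate the value was 0.68 with an SE of 0.45 (edgeR FDR 0.188), which did not pass either.

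A sum over the 5 copies does not depend on how reads were split among them, although all 5 also share stretches of 75 bases with the pseudogene Gm8893 (9.70 ± 6.06 CPM in control and 10.5 ± 4.18 in MCD libraries; SD, n = 12 each). If shared reads were dropped instead, the sum would still depend on the mix of copies. The shared part ran from 20.3% in Serpina1e to 66.1% in Serpina1c. The sum of the 5 copies was 21850 ± 8632 CPM in control and 13394 ± 3105 in MCD libraries (SD, n = 12 each). This was a log2 change of -0.71 (SE 0.18, edgeR FDR 0.0011), and 6 of 12 MCD sums were below all control sums. Scaled by total counts it was -0.30 (FDR 0.0460) and did not pass.

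The make-up of the Serpina1 transcripts also changed, a measure that does not depend on library scaling, although it does depend on how reads were split between copies. Serpina1d made up 17.1% ± 2.78 of Serpina1 counts in control and 10.6% ± 1.95 in MCD liver (SD, n = 12 each). Its share lay between 14.3% and 21.6% in control and between 8.46% and 12.8% in MCD libraries, with no overlap, and the mean difference was -6.54 percentage points (two-sided permutation test with 100000 resamples, p = 2e-05, adjusted over 8 shares 8e-05). Serpina1a moved the other way, from 20.2% ± 2.0 to 26.0% ± 2.10, a difference of 5.76 points (p = 1e-05, the smallest the resamples can give, adjusted 8e-05), and all 12 MCD libraries were above the control median of 19.8%. A single control library, at 24.96%, reached into the MCD range of 23.0% to 28.8%.

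The shares of the other 3 copies did not pass the test. Serpina1b made up 33.0% ± 5.20 in control and 31.7% ± 5.16 in MCD liver (difference -1.26 points, permutation test, adjusted p = 0.643). The share of Serpina1c was 26.9% ± 5.40 and 23.4% ± 1.63 (-3.52 points, adjusted p = 0.0887), and that of Serpina1e 2.81% ± 3.07 and 8.37% ± 7.97 (5.56 points, adjusted p = 0.0887). With replicate numbers as a block the Serpina1e share passed (permutation test, adjusted p = 0.0313). The test without the block took no account of the separate levels of Serpina1e within MCD liver. Except for those numbered 2 and 8, same-numbered libraries lie on the same side of the sex-linked score described below. The block thus follows those levels in part. Shares add up to 100% within a library, so they do not vary independently. In the 6 MCD libraries where Serpina1e took 12.3% to 19.5%, Serpina1b took 25.6% to 28.7%, and in the other 6 it took 34.9% to 38.6%. Serpina1c took 22.7% to 26.7% and 21.2% to 23.8% in the same libraries. Serpina1a took 23.0% to 25.5% and 27.1% to 28.8% in them, and Serpina1d 8.46% to 9.19% and 11.8% to 12.8%, both with no overlap.

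**Figure D3:**
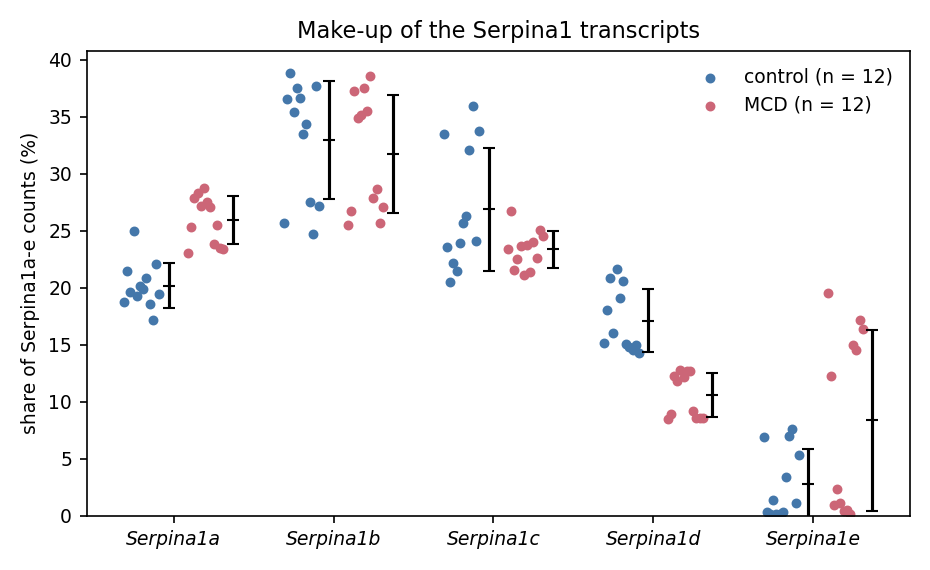
Share of each copy in the summed Serpina1 counts of each library, in percent. Each point is a library (12 control, blue; 12 MCD, red), and bars give the mean ± SD. Serpina1d shares do not overlap between the diets, and Serpina1a shares are higher in MCD libraries. Serpina1a, Serpina1b, Serpina1d and Serpina1e each fall into separate levels within MCD libraries.

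Of the Serpina3 genes, Serpina3m was lower in MCD liver. It ranged from 233 CPM (median 332) to 491 in control and from 144 (median 218) to 279 in MCD libraries, and 8 of the 12 MCD libraries were below every control library. The fitted log2 change was -0.66 (SE 0.13, edgeR FDR 6.83e-05). Scaled by total counts it was -0.28 (FDR 0.0309) and did not pass.

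Serpina3k, the most abundant of them and known as a kallikrein-binding protein, went from a range of 1877 to 9955 CPM (median 4238) in control to 1134 to 6396 (median 3129) in MCD libraries. The groups overlapped broadly, and the log2 fold change of -0.67 (SE 0.28) had an FDR of 0.0375 in edgeR, short of the limit. With the score described below as a covariate, Serpina3k passed with nearly the same change, -0.66 (FDR 0.00353).

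Serpina3n encodes an inhibitor of granzyme B and leukocyte proteases, and its RNA is a known marker of the acute phase response. It was among the least affected members, ranging from 446 CPM (median 594) to 1221 in control and from 436 (median 561) to 871 in MCD libraries. The log2 change was -0.14 (SE 0.14, 95% interval -0.42 to 0.15, edgeR FDR 0.401). The sign was not settled, since the value was 0.02 with upper-quartile scaling, 0.25 on total counts alone and 0.02 without control replicate 12. That library had the lowest TMM factor of all (0.642) and the highest CPM among control libraries of the 5 Serpina1 genes, Serpina3n and Serpina10. Without it the same number of members, 5, was called lower.

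The sum of the 3 Serpina3 genes was 6580 ± 3207 CPM in control and 4309 ± 1550 in MCD libraries (SD, n = 12 each; log2 fold change -0.61, SE 0.24, edgeR FDR 0.0274), which did not pass. Serpina3k made up 82.8% ± 6.502 of it in control and 79.3% ± 8.27 in MCD liver, a difference of -3.49 points (permutation test, adjusted p = 0.351). The shares of Serpina3m (6.12% ± 2.38 and 5.85% ± 2.89, adjusted p = 0.807) and Serpina3n (11.1% ± 4.52 and 14.9% ± 5.54, adjusted p = 0.133) did not pass the test either. With replicate numbers as a block the Serpina3n share did pass, as given in the closing section.

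Serpina6, which encodes the plasma carrier of glucocorticoids, was lower in MCD liver on every scale tried. It ranged from 146 CPM (median 348) to 644 in control and from 70.1 (median 156) to 272 in MCD libraries, and all 12 MCD libraries were below the control median, 6 of them below every control library. By edgeR the log2 change was -1.12 (SE 0.22, FDR 6.73e-05), and -0.74 (FDR 0.00499) on total counts alone. Serpina10, the inhibitor of factor Xa, moved the other way. It ranged from 97.9 CPM (median 182) to 290 in control and from 189 (median 225) to 364 in MCD libraries, with all 12 MCD libraries above the control median. The log2 fold change of 0.39 (SE 0.14, edgeR FDR 0.0175) did not pass, and it passed at 0.54 with upper-quartile scaling (23.1% of all tested genes were then called higher) and at 0.78 on total counts alone.

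The wide spread of Serpina1e within each diet went with sex-linked expression. The score of a library was log2 CPM of Xist, transcribed from the inactive X chromosome of females, minus the mean log2 CPM of the Y-linked genes Ddx3y, Eif2s3y, Kdm5d and Uty. It served only as a number, and libraries were not assigned to a sex by it. The scores fell into separate clusters, from -7.80 to -5.13 and from 10.95 to 12.4 in control and from -7.32 to -5.25 and from 10.84 to 11.2 in MCD libraries, with 6 libraries in each. In MCD liver the 6 libraries with scores below 0 had 1666 to 3594 CPM of Serpina1e and the 6 with scores above 0 had 13.1 to 287, with no overlap. In control liver the ranges were 135 to 2274 and 17.7 to 255 CPM. They overlapped through control replicate 11 alone, which had a score below 0 but 135 CPM of Serpina1e. Control replicate 8, the next lowest at scores below 0, had 496 CPM, and these 2 libraries also had the lowest Serpina1d of all control libraries (1857 CPM in replicate 11 and 2184 in replicate 8). As a share of the summed Serpina1 counts, Serpina1e took 1.09% to 7.62% in control and 12.3% to 19.5% in MCD libraries at scores below 0, with no overlap. At scores above 0 it took 0.114% to 1.37% and 0.154% to 2.33%, which overlapped. This split was given no test.

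Fitted beside diet over all 24 libraries, a rise of 10 units in the score went with a log2 change of -2.51 in Serpina1e (SE 0.29, edgeR FDR 1.09e-06), -0.59 in Serpina3k (SE 0.11, FDR 0.000527), -0.45 in Serpina1c (SE 0.10, FDR 0.00589) and 0.41 in Serpina6 (SE 0.09, FDR 0.00491). For the other 6 members the FDR was above 0.01, and 3.41% of all tested genes passed. Thus the 4 genes differed in direction, with Serpina6 higher and the others lower at high scores. In MCD liver, Serpina1c ranged from 3472 to 4312 CPM at scores below 0 and from 1820 to 2825 above, and Serpina3k from 3334 to 6396 and from 1134 to 2924, again with no overlap. Serpina6 overlapped, at 70.1 to 173 and 133 to 272 CPM. In control liver all 3 overlapped, with Serpina1c at 2993 to 14334 CPM below 0 and 3177 to 6227 above, Serpina3k at 2882 to 9955 and 1877 to 4708, and Serpina6 at 146 to 511 and 318 to 644. For Serpina1c and Serpina3k the overlap came from control replicates 8 and 11 alone. The other control libraries at scores below 0 had 7928 to 14334 CPM of Serpina1c and 8893 to 9955 of Serpina3k. Whether the diet effect itself varied with the score was tested by an interaction, which was past an FDR of 0.01 for 0 of the 10 members (edgeR, lowest unadjusted p 0.171 and FDR 0.539, both for Serpina10, background 0.411%). The score coefficients were computed after the separate levels of Serpina1e in MCD liver had been seen.

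**Figure D4:**
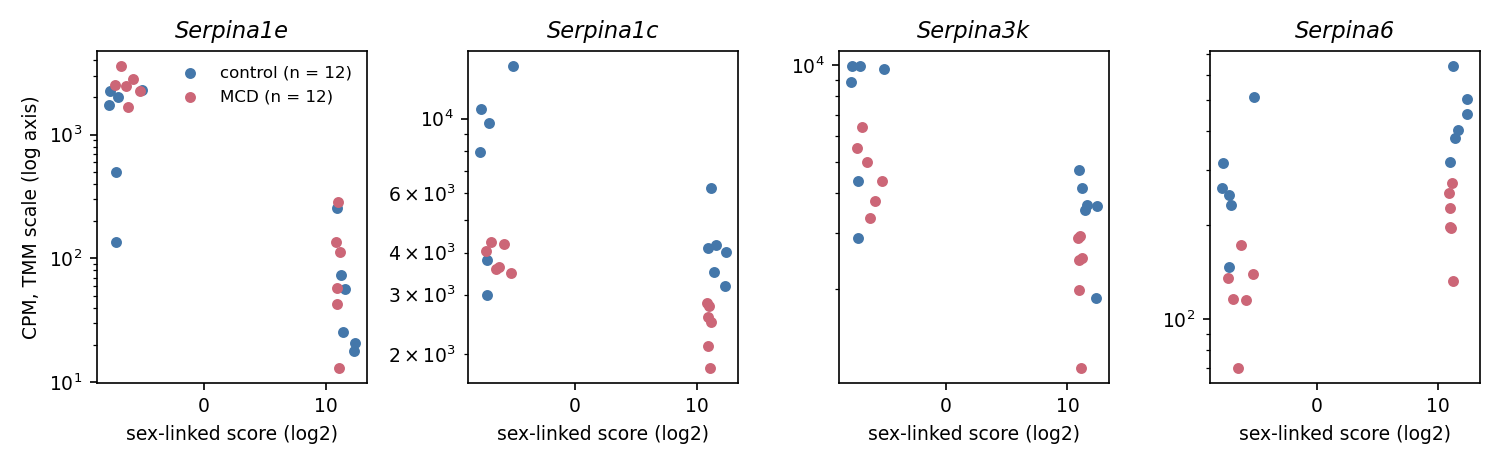
CPM on the TMM scale (log axis) of Serpina1e, Serpina1c, Serpina3k and Serpina6 against the sex-linked score (log2 CPM of Xist minus the mean of 4 Y-linked genes). Each point is a library (12 control, blue; 12 MCD, red). Serpina1e, Serpina1c and Serpina3k do not overlap between low and high scores in MCD libraries, and 2 control libraries at low scores sit apart with low Serpina1e.

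The genes whose levels ran most like 4 of the members across animals were found, among genes other than the 10 members, by the mean of the Spearman correlations within control and within MCD libraries (n = 12 each) over 10102 genes with at least 5 CPM. For Serpina1e they were Ces3a (0.951), a carboxylesterase, Slco1a1 (0.948), a hepatocyte organic anion uptake transporter, and Ttc39c (0.941). For Serpina3k they were C8b (0.902), which encodes a chain of complement C8, Selenbp2 (0.881) and Nlrp12 (0.881), while the member Serpina1e ran closer to it than these did (0.895 in control and 0.958 in MCD liver). Serpina3n ran most like genes of plasma protease inhibitors and plasminogen, namely Itih3 (0.913), Pzp (0.878) and Plg (0.839). Serpina6 ran most like Notum (0.871), Mtch1 (0.867) and Gab1 (0.867). The libraries lie in clusters of the score, and these values share library depth and scaling, so they describe these 24 libraries only.

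Other clade A genes were expressed at lower levels. Of 16 on a list of neighbours, 10 had enough counts to be tested, of which edgeR called 3 higher and 0 lower (4 and 1 at an unadjusted p under 0.05, 0 lower by DESeq2 and limma-voom). The 3 were all minor Serpina3 copies: Serpina3g (13.2 ± 3.75 to 25.03 ± 5.57 CPM, log2 fold change 0.92), Serpina3h (0.65 ± 0.26 to 1.64 ± 0.57 CPM, 1.31) and Serpina3i (0.13 ± 0.08 to 1.05 ± 0.30 CPM, 2.88; SD, n = 12 each). They were called higher on total counts alone too, and Serpina3g shares stretches of 75 bases with Serpina3n. The median over the 10 was -0.08, and 0.29 on total counts alone. Of 14 serpins of other clades, all tested, 6 were higher, 2 were lower and 6 did not pass. Serpinb6b (log2 fold change 2.76), an intracellular serpin, and Serpini1 (2.42), known as neuroserpin, were among those that rose. Serpini1 stood at 0.18 ± 0.26 CPM and Serpina3i at 0.13 CPM in control liver, where 3 counts in a library amount to 0.134 to 0.227 CPM, so the sizes of these folds rest on few reads. Those that fell were Serpinc1 (-0.76), which encodes antithrombin, and Serpinf1 (-0.66), which encodes pigment epithelium-derived factor. With total-count scaling neither was called (-0.39 and -0.27), and 8 of the 14 were called higher.

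Proteases that these serpins meet, with cofactors, receptors and secretory cargo factors, formed a list of 16, of which 13 were tested, 2 were higher and 7 lower. Neutrophil elastase (Elane), cathepsin G (Ctsg) and Mmp9 had too few counts for the test. The myeloid protease gene Prtn3 rose from 0.80 ± 1.44 to 3.32 ± 3.93 CPM (log2 fold change 2.12, edgeR FDR 0.00431), and Gzmb, encoding the granzyme that Serpina3n inhibits, from 0.47 ± 0.23 to 1.13 ± 1.20 CPM (1.25, FDR 0.00664; SD, n = 12 each). Lman1, a cargo receptor that carries alpha-1-antitrypsin out of the endoplasmic reticulum, fell from 251 ± 31.9 to 145 ± 13.3 CPM with no overlap between the diets (-0.79, FDR 7.81e-10). The cargo factors Mcfd2 (-0.08, FDR 0.542) and Surf4 (-0.09, FDR 0.257) did not pass. Edem1, which takes part in the degradation of misfolded glycoproteins, fell from 187 ± 25.4 to 114 ± 12.7 CPM (-0.71, FDR 1.99e-08). Klkb1, which encodes plasma prekallikrein, fell by 0.77 on the log2 scale (FDR 6.61e-06), and the partners of Serpina10 fell as well, with Proz (protein Z) at -0.66 (FDR 2.52e-05) and F10 at -0.58 (FDR 0.000344). With total-count scaling Lman1, Edem1, Klkb1, Proz and F10 were still below 0, at -0.43, -0.36, -0.37, -0.32 and -0.18, but short of the fold limit.

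Beside the fall of Serpina6, 5 of 9 tested genes of glucocorticoid handling (10 on the list) were lower and 0 higher in edgeR (1 higher at an unadjusted p under 0.05 and by DESeq2, 0 by limma-voom). Akr1d1 (log2 fold change -1.28) and Srd5a1 (-1.17), which encode steroid 5-beta- and 5-alpha-reductases, and the mineralocorticoid receptor Nr3c2 (-1.23) fell most, followed by Hsd11b1 (-0.86), the enzyme that regenerates active glucocorticoid, and the glucocorticoid receptor Nr3c1 (-0.73). Genes that glucocorticoids induce did not pass: Fkbp5 had a value of -0.17, Per1 of -0.02, Tat of 0.10 and Tsc22d3 of 0.48. With total-count scaling 3 of the 9 were called lower (Akr1d1, Srd5a1 and Nr3c2) and 1 higher (Tsc22d3, 0.83, FDR 0.000104), Nr3c1 (-0.39) and Hsd11b1 (-0.47) were not called, and the median moved from -0.73 to -0.39.

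Of 15 transcription factors known to act on hepatocyte serpin genes, 1 was higher and 5 were lower. Cebpd, a factor of the acute phase, rose from 17.5 ± 9.03 to 49.5 ± 14.6 CPM (log2 fold change 1.498). Cebpa fell from 572 ± 62.8 to 322 ± 33.9 CPM (-0.83) and Nr5a2 fell from 60.6 ± 8.90 to 36.9 ± 4.01 CPM (-0.71; SD, n = 12 each), and both had no overlap between the diets. With total-count scaling Cebpa (-0.46) and Nr5a2 (-0.36) were short of the fold limit, 0 of the 15 were called lower and 4 higher, and the median moved from -0.37 to 0.01. Whether these factors had a part in the serpin changes was not tested.

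Genes of IL-6 and STAT3 signalling, which drives acute phase transcription, were listed together with genes of TNF and IL-1. They were mostly short of the threshold, with 3 of 13 tested higher (Tnf 2.79, Osmr 1.23, Il1r1 0.58) and 1 lower (Lifr, -0.92). Tnf stood at 0.26 ± 0.15 CPM in control liver (SD, n = 12), near the 0.134 to 0.227 CPM of 3 counts, so the size of its fold rests on few reads. Il6 had too few counts. Acute phase proteins went both ways, with 7 of 19 higher, 4 lower and 8 not past the threshold. Lcn2 rose from 32.7 ± 21.5 to 461 ± 270.0 CPM (log2 fold change 3.82), Orm2 from 16.4 ± 10.2 to 212 ± 209 CPM (3.70) and Saa3 from 3.30 ± 4.002 to 30.4 ± 7.11 CPM (3.24; SD, n = 12 each), while Itih4 (-0.75) and the fibrinogen chains Fgb (-0.71), Fgg (-0.62) and Fga (-0.61) fell. With total-count scaling those 4 were between -0.37 and -0.23 and not called, and 10 of the 19 were called higher. Orm2 and Saa3 have close copies too, so their values carry the same doubt on how reads were split.

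Markers of cell types moved with the diet. Of 7 hepatocyte markers, edgeR called 4 lower and 0 higher (0 higher also at an unadjusted p under 0.05, by DESeq2 and by limma-voom), with a median log2 fold change of -0.62 beside the members' -0.67, and on total counts alone the medians were -0.24 and -0.27, with 0 hepatocyte markers called lower and 1 higher (Ahsg, 0.51). Ttr (-0.85), Apoh (-0.82) and Apoc3 (-0.68) fell most, and Alb, at 79836 ± 18360 CPM in control liver, fell by 0.62. The summed level of these markers was 91896 to 203280 CPM in control and 75904 to 109040 in MCD libraries. Markers of other cells rose: 7 of 7 for monocyte-derived macrophages (summed 42.6 to 121 CPM in control and 670 to 1421 in MCD libraries; Gpnmb 6.89, Trem2 4.59, Itgam 3.33), 5 of 5 for cholangiocytes (30.1 to 146 and 452 to 904 CPM; Epcam 3.67, Krt7 3.48, Spp1 3.34) and 7 of 8 for stellate and mesenchymal cells (159.7 to 490 and 664 to 1173 CPM; Lum 3.15, Col1a1 2.88, Col3a1 2.11), with Lrat lower (-0.93). Kupffer cell markers fell in 4 of 5 (137 to 423 and 81.3 to 297 CPM; Timd4 -4.10, Marco -1.20, Clec4f -1.11), and endothelial markers in 4 of 5 (170 to 250 and 97.5 to 155 CPM; Kdr -1.12, Stab2 -0.81, Pecam1 -0.62). With total-count scaling 1 marker of each of these last lists was still called lower (Timd4, -3.75, and Kdr, -0.79), Lrat (-0.60, FDR 0.0107) was not, and the macrophage, cholangiocyte and other mesenchymal markers were all called higher. Of 5 lymphocyte markers 2 rose (2.93 to 10.8 and 8.24 to 16.2 CPM; Nkg7 2.06, Cd3e 1.91). Of 7 neutrophil markers 2 were tested and rose (S100a8 2.80, S100a9 2.34), while Ly6g, Mpo, Elane, Camp and Ngp had too few counts, the 7 together summing to 0.649 to 4.09 CPM in control and 3.54 to 29.2 CPM in MCD libraries. None of these markers was at 0 in every library. The part of cell make-up in the serpin changes was not tested.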

How the data were processed

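Poly(A) RNA of 24 mouse livers was sequenced. The authors deposited raw read counts per Ensembl gene, not normalized. Per the labels, STAR 2.7.3a and mm10 were used; the study's methods describe a stranded kit and PISCES quantification for RNA-Seq with a human reference, and whether these hold for the mouse libraries, with their annotation and use of strand, is not given in the sources used here. Rows with no symbol in GENCODE M21 held 0.0808% of counts and were kept under their identifier. Genes passing filterByExpr by diet (14109) were fitted with edgeR 4.0.16 (glmQLFit, glmQLFTest, TMM factors, R 4.3.3) over 12 MCD and 12 control libraries with no covariate, and p-values were adjusted over all of them. Calls needed an absolute log2 fold change above 0.5 at an FDR not over 0.01, which the study states for human liver. Confidence intervals are at 95%.

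For the sums, the rows of a family were replaced by their total before fitting. Shares were compared by two-sided permutation tests (numpy 2.4.6, Python 3.11.15). On simulated counts of 14109 genes for this comparison, the edgeR fit recovered 79 of 100 genes changed by 1 and 95 of 100 changed by 2 on the log2 scale, and called 2 unchanged genes. Only these genes were changed in the simulation, as many up as down, so it does not bear on the choice of scale. The series gives 12 animals per diet and 1 library was listed for each; no pair of libraries was identical.

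The members and all gene lists were chosen with earlier results of these data known. Named genes are the 10 members, from each other list up to 3 called genes with the highest and up to 3 with the lowest log2 fold change (more where they act directly with a member), and 3 genes for each of 4 members by within-diet likeness. Some genes this rule selects are not reported here. Fgg and Fga, Nr3c1, Hsd11b1, Alb, Mcfd2, Surf4 and the glucocorticoid-induced genes that did not pass were named in addition, after their values were seen. Alternatives were DESeq2 1.42.0, limma-voom (limma 3.58.1), scaling by RLE (relative log expression) factors, by the upper quartile or by total counts only, no filter on low counts, a replicate block, the score as covariate, a looser threshold (FDR 0.05 at any fold change), and leaving out each library. Figures were drawn with matplotlib 3.10.9.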

Additional observations from a re-analysis of the deposited data

How the results depend on the processing

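The number of members called lower was 5 or 6 under each alternative other than total counts alone, and 5 without any single library. On total counts alone 2 members were called lower and 1 higher, with 848 genes lower and 4539 higher among all tested; the log2 fold changes were then 0.061 for Serpina1a and 0.25 for Serpina3n, both on the other side of 0, -0.35 for Serpina1b, -0.54 for Serpina1c, -0.28 for Serpina3m and -0.30 for the Serpina1 sum, none of which passed, and 0.78 for Serpina10, which did. With upper-quartile factors 1 member was called higher (Serpina10, 0.54), Serpina3n was at 0.017 and 3261 of 14109 tested genes were higher and 1710 lower. At an FDR of 0.05 with no limit on the fold change, Serpina3k (-0.67), Serpina10 (0.39) and the Serpina3 sum (-0.61) passed, with 1 member higher and 6 lower beside 3742 and 5221 of all tested genes. With the score as a covariate Serpina3k (-0.66) and the Serpina3 sum (-0.59) passed. In the related lists, transcription factors called higher numbered 1 in edgeR and 3 in DESeq2 and in limma-voom, glucocorticoid genes called higher 0 in edgeR and 1 in DESeq2, and proteases and their partners called higher 2 in edgeR and 1 in limma-voom; the other counts of the lists moved by at most 2 genes between the tools. On total counts alone the genes called lower went from 7 to 0 for proteases and their partners, 5 to 0 for transcription factors, 5 to 3 for glucocorticoid genes, 4 to 0 for acute phase proteins and for hepatocyte markers, and 4 to 1 for Kupffer and for endothelial markers. The TMM scale and total counts cannot be told apart as the truer scale from these files.

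Leaving out each library in turn moved Serpina1a between -0.39 and -0.18 (the latter without control replicate 12) and Serpina3n between -0.18 and 0.022, its share difference between 2.79 and 4.74 points, that of Serpina3k between -4.75 (without control replicate 3) and -1.92 (without MCD replicate 8), that of Serpina1b between -2.01 (without control replicate 10) and -0.70 (without MCD replicate 1), that of Serpina1c between -4.11 and -2.70 and that of Serpina3m between -0.86 and 0.03; without control replicate 3 the shares of Serpina1c and Serpina3n passed an adjusted p of 0.05 (0.0374 each), that of Serpina3m was 0.011, and without control replicate 7 it was 0.030. The other 571 of 576 such values kept their direction and their side of the threshold.

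Same-numbered libraries deviated together (r above 0.1) in 8 of 12 pairs, from -0.28 to 0.349, and 2 of 12 numbers correlated best with their own, so the numbers are not taken to pair animals. The lowest values were -0.28 for number 2 and -0.214 for number 8, whose control and MCD libraries lie on opposite sides of the score. At every other number both libraries lie on the same side, so a replicate block also follows the score. With a replicate block the Serpina1e share (5.56 points, adjusted p = 0.0313) and the Serpina3n share (3.76 points, 0.0156) passed 0.05, 2430 of all genes were lower, and 5 members were called lower. Depth did not limit the members, whose lowest count was 307; how reads were split between near-identical copies could not be checked.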
